A study of Triticum dicoccoides with 12 samples.

Results

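The subject is the set of wheat probe sets that gave a signal only under terminal drought, in both of the genotypes studied. Members were chosen from the deposited signals themselves: a probe set had to read above 129 on all 6 terminal drought arrays and below 129 on all 6 well-watered arrays. The rule was met by 164 of 61115 probe sets (0.268%), once the control and reporter probe sets of the array were left out. A probe set is a group of short probes meant to measure 1 transcript together, and its signal is given in arbitrary intensity units on a linear scale. The level of 129 is the 95th percentile of 276 values from 23 control probe sets that target no wheat transcript, and it is called the control level here. Because the drought contrast chose the members, their rise under drought is described without a test.

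The plants were wild emmer wheat (Triticum turgidum subsp. dicoccoides), a tetraploid wild relative of cultivated wheat, sampled in reproductive growth at 10 weeks of age. The 4 groups were the drought-resistant genotype Y12-3 (R) under terminal drought, R well-watered, the drought-susceptible genotype A24-39 (S) under terminal drought, and S well-watered, each with 3 arrays. All plants grew in sand and peat, and the labelled material is phyllome, the term for leaves and leaf-like organs. Each genotype is a single accession, so a difference between R and S is a difference between those 2 lines. No label ties a sample to a plant of its own, so the error behind each p-value is that between 3 samples that may be technical repeats.

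Plants that dry out during reproductive growth accumulate abscisic acid, a hormone that closes stomata and switches on many genes that are nearly silent in watered leaves. Products of such genes in cereals include dehydrins and other late embryogenesis abundant proteins, which protect membranes and proteins during water loss, as well as lipid transfer proteins, enzymes that make osmolytes, and regulators such as protein phosphatases and transcription factors. Transcripts that are absent from watered leaf tissue and present in dry leaf tissue are known from this class. This is background, since the annotation used here names no function for any member.

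The array annotation, dated 2007, pairs 6 of the 164 members (3.66%) with 5 genes, all known only by a locus number, against 2.08% of all probe sets paired with a gene. None of the 6 matches the wild emmer RefSeq table (assembly of the accession Zavitan) by gene ID, symbol or accession, so all members are given by their probe set IDs. A list of 51 genes held dehydrin, abscisic acid, osmolyte, lipid transfer and pathogenesis, heat shock, senescence and transport symbols. Of these the annotation names 4, COR410 from the dehydrin group and THI1.1, THI1.2 and TTHV from the lipid transfer and pathogenesis group. None of those 4 was a member, and none of their 5 probe sets was above the control level on more than 1 array, so the families on the list could not be followed in the set. Leaf tissue was looked at through petC, FBP, GAPN and CAT1, genes of photosynthesis, carbon metabolism and peroxide breakdown. The brightest probe set of each was above the control level on all 12 arrays, which does not by itself show leaf identity. Other probe sets of petC, FBP and CAT1 were above it on 0, 2 and 8 arrays. For the brightest probe sets, the lowest drought reading was below the lowest well-watered reading, at 472 against 10501 for FBP and 224 against 7526 for GAPN. The part of this in the members' values was not tested. R well-watered replicate 3 stood apart, since 33048 probe sets exceeded the control level on it, against 21851 to 27347 on each of the other 11 arrays. These are bulk samples, in which fewer cells of a type and less RNA per cell cannot be told apart.

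Most members were dim, and a few were among the brightest signals on the drought arrays. The geometric mean over the 6 drought arrays ran from 169 to 54289, with a median of 485 and quartiles of 288 and 1350. The median of all 16972 probe sets that were above the control level on all 6 drought arrays was 987, so the middle member lay below the middle transcript of droughted tissue. Between the control level and 250 there were 31 members, 53 lay from 250 to 500, 36 from 500 to 1000, 31 from 1000 to 4000 and 13 above 4000. The 8 brightest members held 50.2% of the summed drought signal of all 164.

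**Figure D1:**
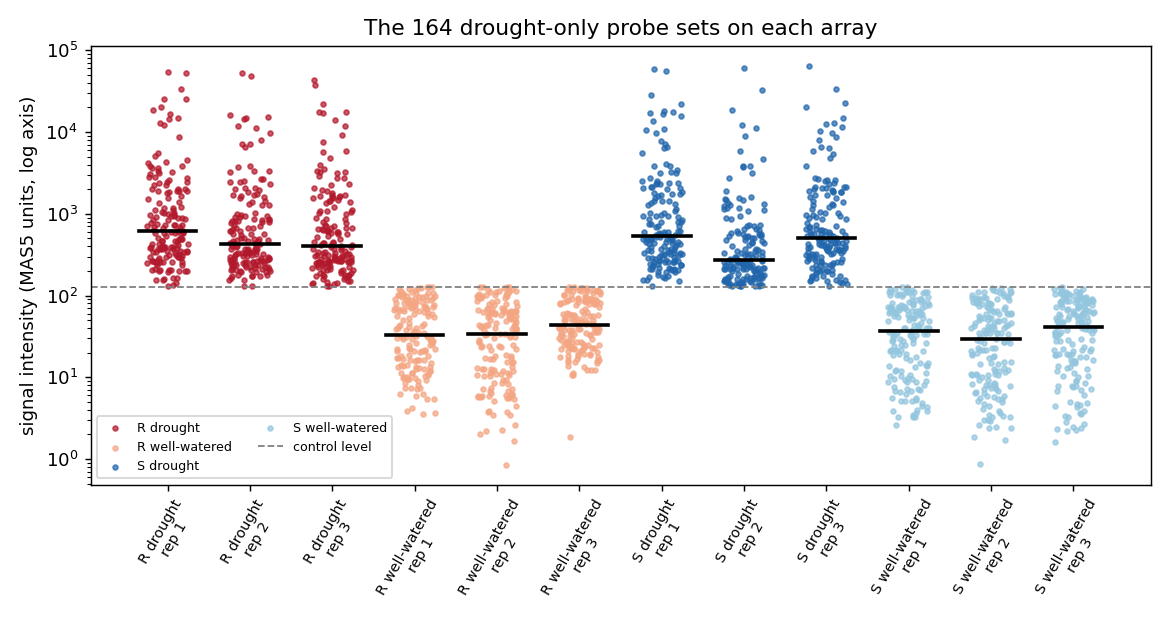
Signal intensity (log axis) of the 164 members on each of the 12 arrays, with a point per probe set, a black bar at the median and a dashed line at the control level of 129. The gap at the dashed line is set by the rule, while the medians differ among drought arrays, with 271 on S drought replicate 2 and 610 on R drought replicate 1.

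On the drought arrays, the median signal of the members was 610, 428 and 402 in R (replicates 1 to 3) and 530, 271 and 501 in S. The mean of these medians was 480 ± 113 in R and 434 ± 142 in S (SD, n = 3), and the ranges overlap. On the well-watered arrays the medians were 33.3, 33.9 and 43.4 in R and 36.8, 29.2 and 41.4 in S. The well-watered values of the members had a median of 37.8, against 18.7 for the control probe sets and 22.4 for all 21475 probe sets below the control level on the 6 well-watered arrays. The members' well-watered signals were thus within the range of the controls but above their median, and no more can be given for a well-watered level than that it was below the control level.

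For each member the rise under drought is a lower bound, computed as the geometric mean of the drought arrays of a genotype divided by the control level. The bound ran from 1.23-fold to 373-fold in R with a median of 3.38, and from 1.21-fold to 475-fold in S with a median of 3.25. It was at least 10-fold for 42 members in R and 36 in S, with 29 in both, and it was under 2-fold for 31 members in R and 39 in S. These folds are values that the rule shaped and support nothing by themselves. The opposite pattern, above the control level on all 6 well-watered arrays and below it on all 6 drought arrays, was met by 287 probe sets.

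The brightest member, TaAffx.79139.1.S1_at, read 53974, 47928 and 42938 in R under drought and 59240, 60435 and 64380 in S under drought. In well-watered plants it read 29.3, 43.8 and 103 in R and 46.7, 27.6 and 54.9 in S. It ranked 26 of all 61115 probe sets by its mean under drought and was among the 3 members with the smallest spread within genotypes (pooled SD 0.12 on the log2 scale). Its R arrays all lay below its S arrays, yet the difference of −0.35 ± 0.31 (log2, SE) did not pass the test (limma, adjusted p = 0.574). That SE comes from a fit to all 4 groups, in which the spread of well-watered values below the control level counts as well.

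Ta.2638.1.S1_at, the next brightest, read 52615, 52310 and 37900 in R under drought and 55298, 32812 and 34006 in S under drought, with no well-watered array above 27.6. The rise was at least 365-fold in R and at least 306-fold in S. TaAffx.79218.1.S1_at followed at 18574 ± 3788 in R and 23071 ± 4861 in S under drought (SD, n = 3), at least 142-fold and at least 176-fold above the control level. In both of these members the arrays of the genotypes overlap.

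Of the remaining bright members, TaAffx.99992.1.S1_at averaged 12905 ± 3749 in R and 11233 ± 2306 in S under drought (SD, n = 3). Ta.5248.2.S1_x_at read 25084, 15223 and 13997 in R and 18179, 2735 and 12923 in S under drought. Ta.7406.1.S1_x_at read 33819, 7987 and 7627 in R and 7686, 1181 and 9781 in S under drought. These last-named members were uneven, with R drought replicate 1 high and S drought replicate 2 low, and Ta.7406.1.S1_x_at was among the 3 members with the largest spread (pooled SD 1.46 on the log2 scale).

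**Figure D2:**
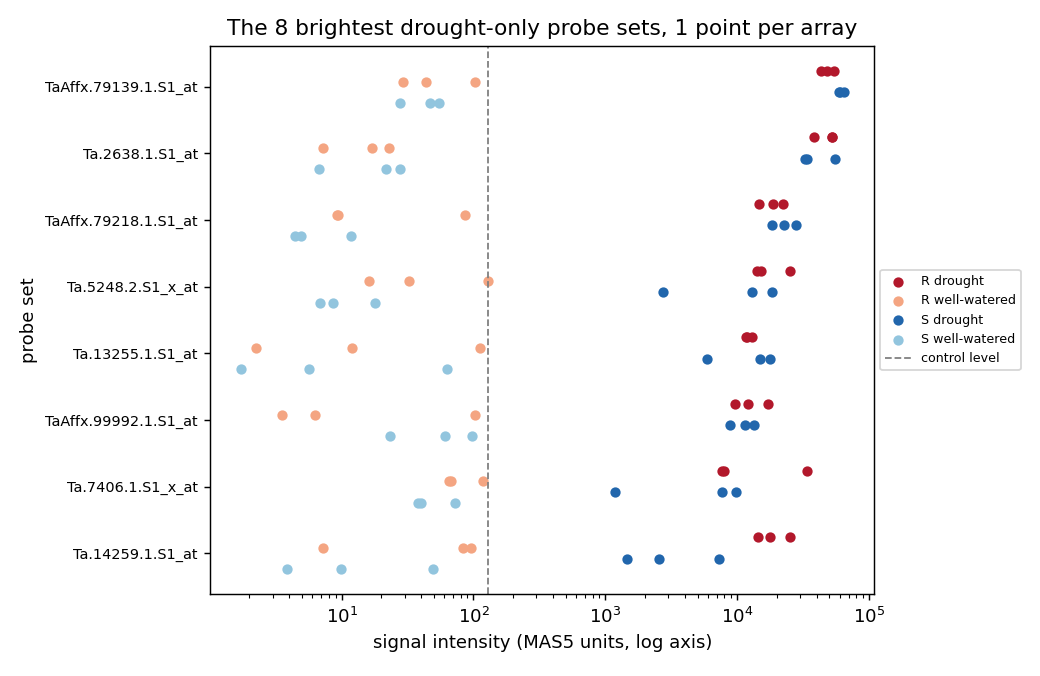
Signal intensity (log axis) of the 8 members with the highest mean log2 signal under drought, a point per array, coloured by group, with the control level dashed. The top 2 read at least 32812 on every drought array, and Ta.14259.1.S1_at at the bottom is the one of the 8 that passed the test between genotypes, with R above S.

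The other 5 members above 4000 were named after their values were seen. Ta.5248.3.S1_a_at read 16462, 11246 and 9083 in R and 9649, 1585 and 6565 in S under drought, and Ta.8753.1.A1_at read 14468, 7120 and 5789 in R and 6372, 1557 and 5878 in S. Ta.14033.1.S1_at read 14664, 6492 and 3201 in R and 10578, 1876 and 7938 in S. In these 3 members R drought replicate 1 was the highest of the 6 arrays and S drought replicate 2 the lowest, and none passed the test between genotypes (limma, adjusted p from 0.263 to 0.884). The other 2, Ta.9389.2.S1_at and TaAffx.6454.1.S1_at, passed it and are given with the genotype comparison. At the dim end, TaAffx.59592.1.S1_at read 141, 165 and 173 in R and 336, 132 and 130 in S under drought, and it is the member with the lowest geometric mean.

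The 5 locus-numbered genes were spread over the range of brightness. LOC542888 (Ta.13255.1.S1_at) read 12847, 11714 and 11864 in R under drought and 17810, 5898 and 14794 in S under drought, and its difference of 0.07 ± 0.67 (log2, SE) did not pass the test (limma, adjusted p = 0.974). This gene was the fifth in brightness among the members and at least 94.0-fold above the control level in R and at least 89.8-fold in S. Its second probe set, Ta.2787.1.S1_at, was not a member because well-watered R replicate 3 read 254. That probe set read 1785, 2331 and 2521 in R and 1501, 305 and 1344 in S under drought, and at most 66.5 on the other 5 well-watered arrays, so both probe sets of the gene had the same pattern apart from 1 array.

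LOC543293 was covered by a pair of members with the same ID stem, which can share probes. Ta.2704.1.S1_at read 1176, 1450 and 4765 in R and 1745, 320 and 1691 in S under drought, and Ta.2704.1.S1_x_at read 2478, 2340 and 5709 in R and 2357, 649 and 1890 in S under drought. R drought replicate 3 was the high array in both, and S drought replicate 2 the low one. Another probe set of this gene, TaAffx.46097.2.S1_at, read 180, 47.0 and 125 in R and 133, 31.6 and 96.0 in S under drought, so it was above the control level on 2 of 6 drought arrays and on none of the well-watered ones.

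LOC543476 (Ta.23797.1.S1_x_at) read 5583, 933 and 1206 in R and 10980, 1484 and 2688 in S under drought. It was among the 3 members with the largest spread (pooled SD 1.43 on the log2 scale), with replicate 1 high in both genotypes. LOC543196 (Ta.105.1.S1_at) read 1638, 465 and 725 in R and 260, 172 and 640 in S, and LOC606319 (Ta.25878.1.S1_at) 678, 445 and 285 in R and 356, 221 and 360 in S. The R and S arrays of each of these 3 genes overlap. No annotated member passed the test between genotypes (limma, adjusted p from 0.166 to 0.974).

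The rule treats both genotypes alike, so the level in R against S under drought was tested, with limma on log2(signal + 16) over the 38398 probe sets that exceeded the median of at least 3 arrays. All 164 members passed that filter, through the drought arrays on which they are high. By the rule, no member is below the control level in either genotype under drought. The median difference, R minus S, was 0.20 on the log2 scale, with quartiles of −0.21 and 0.69, and 101 members (61.6%) were higher in R and 63 lower. The same median was −0.09 over all tested probe sets and −0.01 over those above the control level on all 6 drought arrays, of which 49.3% were higher in R. The members' median rests on single arrays, since it was −0.02 without S drought replicate 2 and 0.05 without R drought replicate 1.

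Few single members passed the test between genotypes. Its error is shared by all 4 groups, so it includes the spread of well-watered values below the control level. At an adjusted p below 0.05, 3 members (1.83%) were higher in R and 8 (4.88%) were lower in R, and 153 did not pass. Among all tested probe sets, 3.58% were called higher in R and 3.91% lower in R, and among those above the control level on all 6 drought arrays the shares were 4.04% and 4.15%. The members' shares are near this background. A fit to the 6 drought arrays alone called 4 members (2.44%) higher and 9 (5.49%) lower in R. Of all tested, it called 3.22% higher and 3.06% lower. With scaling to the hybridization controls, which moved the median difference of all tested probe sets to 0.42 on the log2 scale, 13 members (7.93%) were higher and 4 (2.44%) lower in R, against 5.24% and 1.37% of all tested. With median scaling 6 members (3.66%) were higher and 8 (4.88%) lower, against 4.17% and 2.93%. The R and S drought arrays did not overlap for 21 members with R above (12.8%, against 12.1% of all tested) and for 15 with R below (9.15%, against 15.1% of all tested). Among probe sets above the control level on all 6 drought arrays, these shares were 15.6% and 15.5%. Of the members without overlap, 18 with R above did not pass the test, at log2 differences of 0.49 to 1.97, and neither did 7 with R below, at −1.56 to −0.35. Without R drought replicate 1 or S drought replicate 2, 1 member was called higher in R (0.61%), against 2.23% and 2.46% of all tested. Without R drought replicate 2, S drought replicate 1 or S drought replicate 3, 3 members were called lower in R (1.83%), against 2.78%, 3.62% and 2.45% of all tested. Across members, the mean log2 signals in R and S had a Pearson's r of 0.823 (Spearman's rho 0.810, n = 164), a description only, since members share the same arrays.

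**Figure D3:**
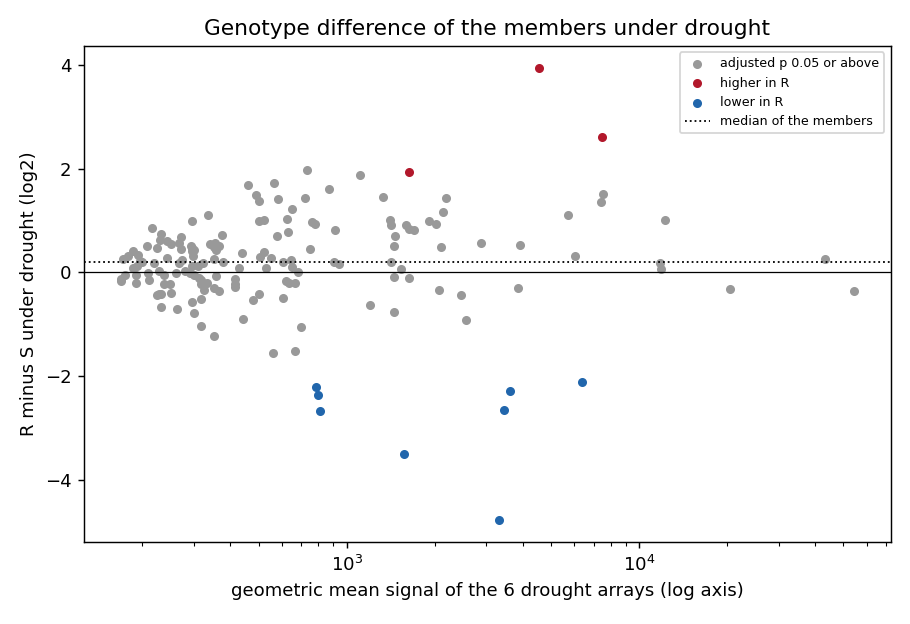
R minus S under drought (log2, from the fit) against the geometric mean signal of the 6 drought arrays (log axis), a point per member. The 3 members higher in R (red) and the 8 lower in R (blue) all have a geometric mean of at least 785, and the dotted line marks the median of 0.20.

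The member with the highest level in R relative to S was TaAffx.6454.1.S1_at. It read 20385, 16027 and 17807 in R and 1769, 416 and 2094 in S under drought, which is 15.6-fold higher in R. The lowest R array lay above the highest S array, the log2 difference was 3.94 ± 0.54 (SE, limma, adjusted p = 0.00034), and the call held in each of the 24 alternatives tried.

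Ta.14259.1.S1_at, among the 8 brightest members, read 25221, 14290 and 17623 in R and 7210, 1471 and 2556 in S under drought, a difference of 2.62 ± 0.65 on the log2 scale (SE, limma, adjusted p = 0.0239). Ta.5728.1.S1_at read 4602, 2669 and 2761 in R and 1628, 554 and 624 in S, a difference of 1.95 ± 0.45 (SE, limma, adjusted p = 0.0154). Both calls were lost without R drought replicate 1, S drought replicate 2 or S drought replicate 3, with adjusted p up to 0.117 for Ta.14259.1.S1_at and 0.0819 for Ta.5728.1.S1_at. The call of Ta.14259.1.S1_at was also lost with a pseudocount of 1 (adjusted p = 0.122) and with eBayes without a trend (adjusted p = 0.0601).

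The largest difference among the members in either direction, by size, was that of Ta.13396.1.S1_at. It read 1192, 460 and 448 in R and 21873, 12324 and 20191 in S under drought, 28.1-fold lower in R (log2 difference −4.77 ± 0.50, SE, limma, adjusted p = 3.34e-05). On the well-watered arrays it read 40.0, 11.1 and 78.2 in R and 20.9, 2.50 and 2.18 in S, all of them below the control level. The call held in each of the 24 alternatives. Another member with the same cluster number, Ta.13396.2.S1_x_at, read 2455, 1622 and 1570 in R and 3243, 1536 and 2505 in S under drought, with a difference of −0.33 ± 0.54 (SE, limma, adjusted p = 0.793), so these probe sets of the cluster gave different answers on the genotypes. Their difference from each other was not tested. Ta.13396.2.S1_at, a probe set of the cluster that is no member, read 2614, 1501 and 1441 in R under drought. In S under drought it read 4094, 1905 and 2687, and its genotypes overlap. The further probe set Ta.13396.3.S1_at was below the control level on all 12 arrays.

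Ta.13300.1.S1_at read 376, 329 and 773 in R and 6522, 3714 and 6413 in S under drought, 11.8-fold lower in R (log2 difference −3.51 ± 0.56, SE, limma, adjusted p = 0.00132), and its call held in each of the 24 alternatives. The R arrays all lay below the S arrays by a wide gap. The 3 members Ta.13396.1.S1_at, Ta.13300.1.S1_at and TaAffx.6454.1.S1_at were the ones of the 11 calls that no alternative removed.

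The other 6 members lower in R come from 3 cluster numbers. Ta.9389.1.S1_at read 1996, 704 and 1793 in R and 16639, 3839 and 10374 in S under drought (log2 difference −2.66 ± 0.59, SE, limma, adjusted p = 0.0125). Ta.9389.2.S1_at and Ta.9389.1.S1_x_at, outside the rule for naming and chosen after their values were seen, differed by −2.11 and −2.30. The 3 members of cluster Ta.9389 were lower in R by 4.35-fold to 6.41-fold, with no overlap between the genotypes' arrays. Another probe set of the cluster, Ta.9389.3.S1_at, was below the control level on all 12 arrays and was not tested. Ta.9389.2.S1_at kept its call in 23 of 24 alternatives and lost it with scaling to the hybridization controls.

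Ta.9216.2.A1_x_at read 342, 174 and 519 in R and 3120, 1373 and 2143 in S under drought, 6.67-fold lower in R (log2 difference −2.67 ± 0.61, SE, limma, adjusted p = 0.0148). Ta.9216.2.A1_at, which differs from it in the ID suffix alone and is also outside the rule for naming, differed by −2.22 (adjusted p = 0.0267). The third member of cluster Ta.9216, Ta.9216.1.A1_a_at, measured −1.52 (adjusted p = 0.117) and did not pass. Ta.9216.1.A1_x_at, a probe set of the cluster that is no member, read 397, 334 and 825 in R and 1729, 542 and 938 in S under drought, and its genotypes overlap. Ta.5317.1.S1_at, again outside that rule, read 486, 288 and 297 in R and 3799, 626 and 2621 in S (log2 difference −2.36, adjusted p = 0.0283). The calls of Ta.9389.1.S1_at, Ta.9389.1.S1_x_at, Ta.9216.2.A1_x_at, Ta.9216.2.A1_at and Ta.5317.1.S1_at were each lost without R drought replicate 2, S drought replicate 1 or S drought replicate 3 and with a pseudocount of 1, with adjusted p up to 0.186. Scaling to the hybridization controls also removed those of Ta.9389.1.S1_x_at, Ta.9216.2.A1_at and Ta.5317.1.S1_at. The call of Ta.5317.1.S1_at was lost without R drought replicate 3 as well (adjusted p = 0.0672), and that of Ta.9216.2.A1_at without R drought replicate 1 (adjusted p = 0.054).

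**Figure D4:**
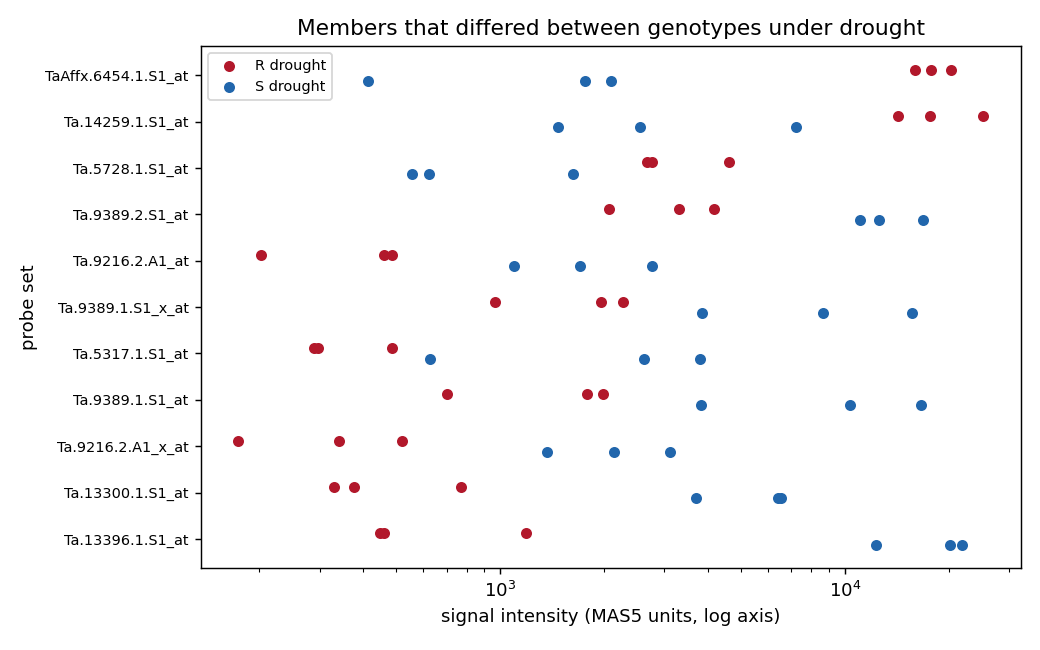
Signal intensity (log axis) of the 11 members that passed the test between genotypes, a point per drought array, R above S within each line. In every line the 3 R points and the 3 S points are separated, and the widest gap is that of Ta.13396.1.S1_at, with 448 to 1192 in R and 12324 to 21873 in S.

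The genotype by drought interaction asks whether the rise under drought differed between R and S. It passed the test for 1 member (0.61%), against 0.148% of all tested probe sets (57 of 38398). That member was Ta.13396.1.S1_at, at −5.95 ± 0.71 on the log2 scale (SE, limma, adjusted p = 0.00381). The well-watered values of all members are below the control level, so this test sets measured drought levels against values with no measured level. With values below the control level raised to it, an alternative chosen after seeing the data, the interaction passed for 5 members (3.05%), against 1.26% of all tested, and that of Ta.13396.1.S1_at was −4.77 (adjusted p = 0.00257). By the rule, this makes all well-watered values of a member equal. Its interaction is then the R minus S drought difference itself, and the well-watered arrays add no spread to its error. The setting is therefore no separate check of the interaction.

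The members' values were unevenly placed among the arrays of each drought group. S drought replicate 2 gave the lowest of the 3 S values for 130 members (79.3%), against 37.3% of the probe sets above the control level on all 6 drought arrays and 33.4% of all tested. R drought replicate 1 gave the highest of the 3 R values for 111 members (67.7%), against 40.1% and 34.1%. Both held for 92 members. In the middle member, S drought replicate 2 read 0.547 times the geometric mean of the other 2 S drought arrays, against 1.03 times for all probe sets above the control level on the 6 drought arrays. R drought replicate 1 read 1.44 times that of the other 2 R drought arrays, against 1.01. On S drought replicates 1 and 3, 85.4% and 73.2% of the members were above their group's mean log2 value. On R drought replicate 1, 75% were. In a group of 3 arrays, a low array lowers the mean, so the other arrays lie above it more often. The median signal of those 16972 probe sets was 1031 on S drought replicate 2 and between 937 and 1033 on the other 5 drought arrays.

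The same order of arrays was seen, less far from even, in 5587 other probe sets that were called higher under drought and were above the control level on all 6 drought arrays. S drought replicate 2 was lowest of the 3 S arrays for 67.8% of them and R drought replicate 1 highest of the 3 R arrays for 64.7%. Their median ratios were 0.78 and 1.21. The labels give no plant, harvest or scan batch, and the part of any of these in the order was not tested.

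**Figure D5:**
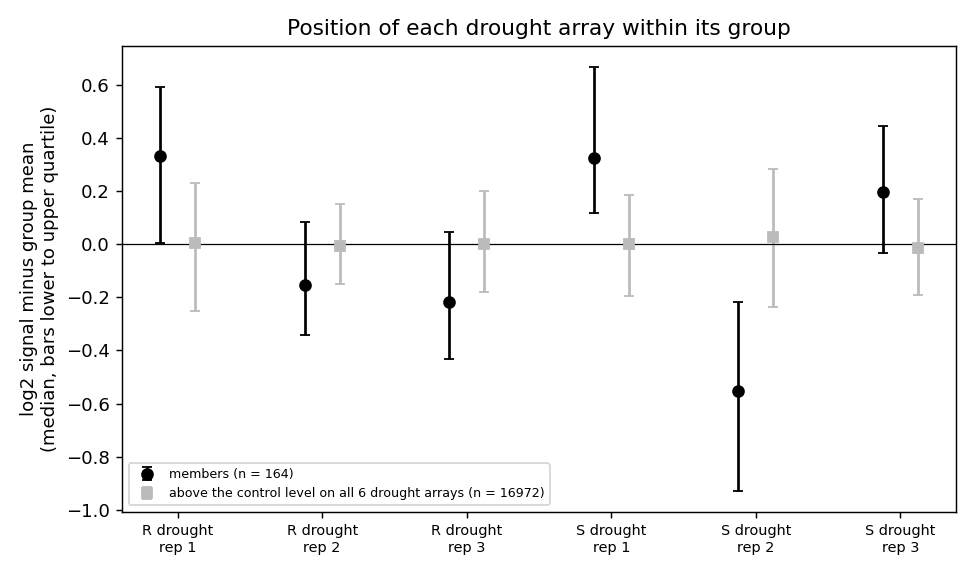
Log2(signal + 16) minus the mean of the array's own group, as the median with bars from the lower to the upper quartile, for the 164 members (black circles) and for the 16972 probe sets above the control level on all 6 drought arrays (grey squares). The members' medians are 0.33, −0.15 and −0.22 on R drought replicates 1 to 3 and 0.32, −0.55 and 0.19 on S drought replicates 1 to 3, while the grey medians lie between −0.02 and 0.03.

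The pooled SD within the drought groups had a median of 0.54 among the members (log2), against 0.33 for the probe sets above the control level on all 6 drought arrays and 0.50 for all tested. The most even members, beside TaAffx.79139.1.S1_at, were Ta.10408.2.A1_at, at 299, 236 and 275 in R and 236, 210 and 212 in S under drought, and TaAffx.57198.1.S1_at, at 237, 226 and 191 in R and 556, 450 and 394 in S. TaAffx.57198.1.S1_at was lower in R on all arrays, but its difference of −1.04 ± 0.35 (log2, SE) did not pass the test (limma, adjusted p = 0.0966). The SE again rests on all 4 groups, well-watered arrays included. The third of the most uneven members was Ta.5805.1.S1_x_at, at 1055, 260 and 206 in R and 1034, 158 and 554 in S, with replicate 1 high in both genotypes.

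Some members share a source. The 164 probe sets carry 155 cluster numbers in their IDs, and 7 of these numbers are carried by 16 members, among them the groups of 3 under Ta.9389 and Ta.9216 and the pairs under Ta.13396, Ta.2704 and Ta.5248. By the prefix of the ID, 99 members (60.4%) began with Ta and 65 (39.6%) with TaAffx, whereas 25.5% of the probe sets above the control level on all 6 drought arrays and 48.6% of all probe sets began with TaAffx. Suffixes that mark probes shared by several sequences (_s_at and _x_at) were carried by 12 and 27 members, which is 7.32% and 16.5%, against 7.84% and 17.5% of the probe sets above the control level on all 6 drought arrays. For those 39 members the signal can come from more than 1 transcript. The suffix _a_at was carried by 7 other members (4.27%, against 13.2%). A single source was not shown for these or for the rest. These shares are a description of the IDs.

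Other probe sets with a member's cluster number were not selected by the rule, and a shared number does not show that they measure the same transcript. There were 228 of them, but 112 carried a single number, TaAffx.128418, which the annotation pairs with 5 different genes. Without that number, left out after the data were seen, 104 probe sets of 55 clusters were tested, and 74 (71.2%) were called higher under drought averaged over the genotypes, 1 was called lower and 29 did not pass (limma, adjusted p below 0.05). With it, 80 of 177 (45.2%) were called higher and 19 lower. Of all tested probe sets, 17.7% were called higher and 23.7% lower. The median change of the relatives was 1.76 on the log2 scale without that number and 0.72 with it, against −0.16 for all tested. Probe sets of 1 cluster can share probes or a transcript, so this count is not independent of the choice of members.

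Of the 104, 29 were above the control level on all 12 arrays, so they were measured in watered tissue too, and 20 of these were called higher under drought. Ta.10243.1.S1_a_at read 64737, 51511 and 42420 in R under drought and 5059, 5796 and 3362 in R well-watered, and 54710, 37387 and 49721 in S under drought and 3041, 3376 and 3859 in S well-watered. It rose by 3.63 ± 0.17 on the log2 scale (SE, limma, adjusted p = 3.23e-09). Ta.4014.2.S1_at rose by 3.75 ± 0.24 (SE, limma, adjusted p = 4.61e-08). Both were thus bright in watered tissue, unlike the members with their cluster numbers. The 1 probe set called lower was Ta.10408.1.S1_at, at 432, 442 and 422 in R under drought and 2398, 2575 and 2552 in R well-watered, and at 588, 410 and 724 in S under drought and 7719, 5170 and 3699 in S well-watered. It fell by 2.85 ± 0.19 on the log2 scale (SE, limma, adjusted p = 7.03e-08), while the member Ta.10408.2.A1_at is among those read only under drought. These 3 were chosen after their values were seen.

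In relatives of 2 bright clusters, too, R drought replicate 1 was the highest of the drought arrays and S drought replicate 2 the lowest. Ta.5248.1.S1_x_at read 21805, 12691 and 11220 in R and 9069, 1346 and 6637 in S under drought, the same order within each genotype as in the members Ta.5248.2.S1_x_at and Ta.5248.3.S1_a_at, and it missed the rule because well-watered R replicate 3 read 164. The relative Ta.7406.2.S1_x_at read 17036, 7090 and 6514 in R and 7138, 1844 and 5563 in S under drought, with 158 to 207 in well-watered R and 206 to 507 in well-watered S. Both relatives were also chosen after their values were seen.

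The edge of the set is not sharp. The members nearest to the level were TaAffx.97800.1.S1_at, with 129.08 on S drought replicate 2, TaAffx.24930.1.S1_x_at, with 129.28 on R drought replicate 2, and TaAffx.82932.1.S1_x_at, with 129.7 on S drought replicate 1. Just outside were Ta.18239.2.S1_a_at, with 129.04 on R well-watered replicate 3, TaAffx.119519.2.A1_at, with 129.04 on R well-watered replicate 2, and Ta.1724.1.S1_at, with 128.96 on R drought replicate 2. Ta.18239.2.S1_a_at read at least 1883 on every drought array. A total of 100 probe sets missed the rule on R well-watered replicate 3 alone, 63 on R well-watered replicate 1 alone and 55 on S drought replicate 2 alone, against 5 to 30 on each of the other 9 arrays. Without R well-watered replicate 3, 264 probe sets met the rule, and without S drought replicate 2, 219 did.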

How the data were processed

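Total RNA from 12 samples was biotin-labelled and hybridised to a wheat oligonucleotide array, per the labels' protocols. The authors deposited an intensity per probe set, linear and not logged, and the submitters' processing notes name MAS5. The MAS5 version, its masking of probes and its target are not given in the sources. The trimmed mean without 2% at each end was 500.1 to 500.2 on every array, so the authors' deposited intensities were already scaled. No present or absent call was used.

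From these, log2(signal + 16) was computed. The 111 AFFX and 64 RPTR probe sets were left out. Under R 4.3.3, limma 3.58.1 fitted means of the 4 groups by lmFit, with trended eBayes, to the 38398 probe sets that exceeded the median of at least 3 of the 12 arrays. P-values were Benjamini-Hochberg adjusted over all of these, and an adjusted p below 0.05 is called. The fit was tested on simulated data. Figures used matplotlib 3.10.9. Precision is limited by the 3 arrays per group (median SE of R minus S among members 0.53).

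Named members were all annotated ones, the 8 brightest, up to 4 highest and 4 lowest called differences without overlap, the 3 smallest and 3 largest spreads, and those nearest the level. Members and lists were chosen with earlier results of these data known. Alternatives covered pseudocount, scaling, filter, fit and each array left out.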

Additional observations from a re-analysis of the deposited data

Results flagged for a closer look

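Ta.13396.1.S1_at was marked because the test of its genotype by drought interaction passed, at −5.95 on the log2 scale (limma, adjusted p = 0.00381). Under drought it read 1192, 460 and 448 in R and 21873, 12324 and 20191 in S, and every well-watered array was below the control level, as the rule requires. The interaction subtracts those values, which have no measured level, so its size beyond the drought difference of −4.77 is not a measurement. With values below the control level raised to it, the interaction was −4.77 (adjusted p = 0.00257). In that setting all its well-watered values are equal, so the interaction is the drought difference itself and no separate check. Over the 23 alternatives run for it, the interaction lay between −7.25 and −4.77 with adjusted p from 7.83e-05 to 0.0308. Groups of 3 arrays are too small for the check for single outlying arrays.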

How the results depend on the processing

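Against 164 members as reported, 367 met the rule with the highest control value (350) as the level, 296 with median scaling before the rule and 275 with quantile normalization, of which 49, 157 and 157 were among the 164. The 90th percentile of the controls as the level gave 112, with 64 shared, and 1.5 times the level gave 242, with 102 shared. Leaving out 1 array gave 169 to 264. The count of members higher in R was 6 with a pseudocount of 64 (3.66%, against 3.70% of all tested) and 6 with median scaling (3.66%, against 4.17%). It was 13 with scaling to the hybridization controls (7.93%, against 5.24%) and 7 with values below the control level raised to it (4.27%, against 3.09%). With 1 array left out it was 1 to 4 (0.61% to 2.44%, against 2.21% to 3.83%). The count lower in R was 3 with a pseudocount of 1 (1.83%, against 3.59% of all tested) and 4 with scaling to the hybridization controls (2.44%, against 1.37%). It was 12 with values below the control level raised to it (7.32%, against 2.98%). With 1 array left out it was 3 to 9 (1.83% to 5.49%, against 2.1% to 5.2%). The median R minus S was 0.74 with scaling to the hybridization controls and −0.02 to 0.37 with 1 array left out. The interaction passed for 3 members with a pseudocount of 64, 2 with scaling to the hybridization controls, 2 with array weights, 2 with the replicate number as a block, and 5 with values below the control level raised to it, and for 1 with any 1 array left out. Of all tested probe sets, 0.445%, 0.247%, 0.227%, 0.12% and 1.26% passed under the first 5 of those settings in the same order, against 0.148% as reported. With 1 array left out, 0.0452% to 0.276% of all tested passed, beside the 1 member (0.61%). With the replicate number as a block, 3 members were higher in R (1.83%, against 3.27% of all tested) and 8 lower (4.88%, against 3.64%). The median was 0.20, and 81 of 177 tested cluster relatives were higher under drought, against 17.3% of all tested. No pairing was assumed, because over all tested probe sets the deviations of same-numbered samples had correlations of −0.126 to 0.181. Among the members, the medians of replicate 1 lay above and those of replicate 2 below the group mean in both drought groups. Cluster relatives called higher were 75 to 81 of the tested with 1 array left out, against 16.1% to 18.2% of all tested probe sets. For 4 named members that did not pass the test, the R minus S difference turned to 0.21 for TaAffx.79139.1.S1_at and 0.25 for TaAffx.79218.1.S1_at with scaling to the hybridization controls, to −0.16 with array weights and −0.42 without S drought replicate 2 (0.38 at most with another array left out) for Ta.13255.1.S1_at, and to −0.038 without R drought replicate 3 (0.37 at most) for TaAffx.99992.1.S1_at. Calls were gained by TaAffx.79139.1.S1_at with values below the control level raised to it (−0.35, adjusted p = 0.0341), and by Ta.7406.1.S1_x_at (2.07, adjusted p = 0.0493) and Ta.105.1.S1_at (1.92, adjusted p = 0.0312) with scaling to the hybridization controls. Scaling to the hybridization controls moved the median R minus S difference of all tested probe sets from −0.09 to 0.42. Raising values to the control level left TaAffx.79139.1.S1_at with equal well-watered values. The part of either in these shifts was not tested. Signals near the control level limit what can be said of the dimmer members.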
